A study of Mus musculus with 88 samples.

Results

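The collagen genes are the 44 loci, of 21942 in the RNA-seq table, whose gene name has the form Col, a type number, a and a chain number. They were followed across all 26 RNA-seq libraries of a mouse study of embryonic stem cells (ESCs), the cultured pluripotent cells of the early embryo, and of mouse embryonic fibroblasts (MEFs), the connective tissue cells grown from later embryos. The B6 cross (F1 of 129X1/SvJ and C57BL6) gave 16 ESC libraries: 4 media by XX and XY, with 2 lines for each medium and sex, all at passage 3. The media were serum, 2i (inhibitors of MEK and GSK3) and, as the study is known to use these names, t2i (the MEK inhibitor titrated down) and a2i (a Src inhibitor in its place). The MSM cross (F1 of 129X1/SvJ and MSM/Ms) gave 10 libraries: 2i ESCs (XX lines 15 and 2, XY lines 20 and 23), serum-derived ESCs labelled S (XX line 8, XY line 12), 1 line moved from 2i to serum and passaged 14 more times (2i-S, XX line 15), 2 MEF libraries at passage 1, and 1 MEF library that carries the number of 2i line 15 (2i MEF, passage 5 plus 1). The labels of the 2 MEF libraries conflict on sex, so no sex was used for them, and passage cannot be told apart from culture history in the 2i-S and 2i MEF libraries. Libraries were treated as separate lines, and line 15 supplied 3 of them.

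Collagens are triple helices of alpha chains, each chain the product of its own gene. Fibroblasts are the main makers of the fibrillar types I, III and V and of type VI, while type IV, laid down as a sheet with laminin and nidogen, and type XVIII, a heparan sulfate proteoglycan, belong to basement membranes, which epithelia and early embryonic cells make themselves. ESCs can be grown on a layer of fibroblast feeder cells, whose RNA is then sequenced with theirs, so a collagen transcript in an ESC library can come from either cell. The labels do not say whether feeders were present when RNA was taken.

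The upstream regions of 3 collagens are shown because they stand for the patterns below: Col1a2 and Col3a1, chains of fibroblast fibrils, and Col9a2, a chain of the fibril-associated type IX, which was read in ESCs and hardly in MEFs. Each is the 250 bases before the RefSeq start (GRCm38.p6, plus strand), which for Col1a2 and Col9a2 lies downstream of the locus start in the deposited table. In these 3 sequences capitals mark a match, on either strand, to any of 3 short promoter motifs. Of the 44 collagens, 35 had an entry in the RefSeq promoter table.
Col1a2, chr6:4505368-4505617: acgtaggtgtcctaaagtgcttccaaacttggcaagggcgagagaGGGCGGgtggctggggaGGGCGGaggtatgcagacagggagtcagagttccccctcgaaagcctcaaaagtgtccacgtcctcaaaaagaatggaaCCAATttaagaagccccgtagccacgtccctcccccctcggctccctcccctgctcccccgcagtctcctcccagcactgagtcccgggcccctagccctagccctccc
Col3a1, chr1:45311288-45311537: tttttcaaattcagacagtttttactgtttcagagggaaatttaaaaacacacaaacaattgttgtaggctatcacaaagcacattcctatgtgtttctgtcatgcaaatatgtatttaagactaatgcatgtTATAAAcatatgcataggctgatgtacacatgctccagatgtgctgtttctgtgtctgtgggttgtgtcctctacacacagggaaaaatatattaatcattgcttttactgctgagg
Col9a2, chr4:121039316-121039565: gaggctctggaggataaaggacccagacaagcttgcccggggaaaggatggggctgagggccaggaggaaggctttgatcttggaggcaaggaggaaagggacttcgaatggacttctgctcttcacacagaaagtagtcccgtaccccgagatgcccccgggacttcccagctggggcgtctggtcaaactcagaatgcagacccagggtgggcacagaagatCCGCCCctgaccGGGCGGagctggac
Col1a2 held GGGCGG at 2 places and CCAAT at 1, Col3a1 held 1 TATAAA, and Col9a2 held 2 GGGCGG, 1 on each strand, near the start. Over all 32851 promoters of the table, TATAAA stood in 12.4%, CCAAT in 33.8% and GGGCGG in 32.7% of such windows. These are matches of letters only. Col4a1 and Col4a2, the chains of the common type IV collagen, lie head to head, and their loci share 22 bases at their starts.
Col4a1 and Col4a2, chr8:11312805-11312826: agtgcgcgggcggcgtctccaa
It is written on the Col4a2 strand, with no matches marked.

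In MEFs, the collagens made up 1.14% and 1.30% of the RPKM sum (RPKM, reads scaled to transcript length and to the mapped reads of the library), and in the 2i MEF 2.89%. In the 4 serum libraries of the B6 cross the share was 0.127% to 0.166%, and in the 17 ESC libraries poor in fibroblast RNA 0.00496% to 0.0305%. Col1a1, the alpha 1 chain of type I collagen, was listed at 2177 and 1741 RPKM in the MEFs and at 4799 RPKM in the 2i MEF. Col3a1, the type III chain, stood at 1986 and 949 RPKM in the MEFs and 4850 RPKM in the 2i MEF. Col1a2 stood at 1505 and 1297 RPKM in the MEFs and 3894 RPKM in the 2i MEF. These 3 chains were the highest of the family in both MEF libraries.

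Below them in the MEFs came the type V chains Col5a2 (624 and 737 RPKM) and Col5a1 (304 and 403 RPKM), the type IV chains Col4a1 (495 and 539 RPKM) and Col4a2 (216 and 239 RPKM), Col12a1 (190 and 275 RPKM), the type VI chains Col6a1 (222 and 239 RPKM), Col6a2 (181 and 187 RPKM) and Col6a3 (87.2 and 98.0 RPKM), and Col8a1 (91.5 and 162 RPKM). In all, 17 collagens had an MEF mean of at least 10 RPKM, 28 of at least 1 RPKM, and 16 lay under 1 RPKM. Of the 44, 7 stayed under 1 RPKM in all 26 libraries. The 2 MEF libraries did not agree on every chain. Col2a1, the cartilage fibril chain, read 8.83 RPKM in MEF line 2 and 0.12 RPKM in line 4, Col18a1 read 22.1 and 6.31 RPKM, Col14a1 read 11.5 and 1.57 RPKM, Col4a6 read 0.0155 and 3.27 RPKM, and Col24a1 read 3.26 and 0.896 RPKM, so ratios to the MEF mean are loose for these 5.

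**Figure D1:**
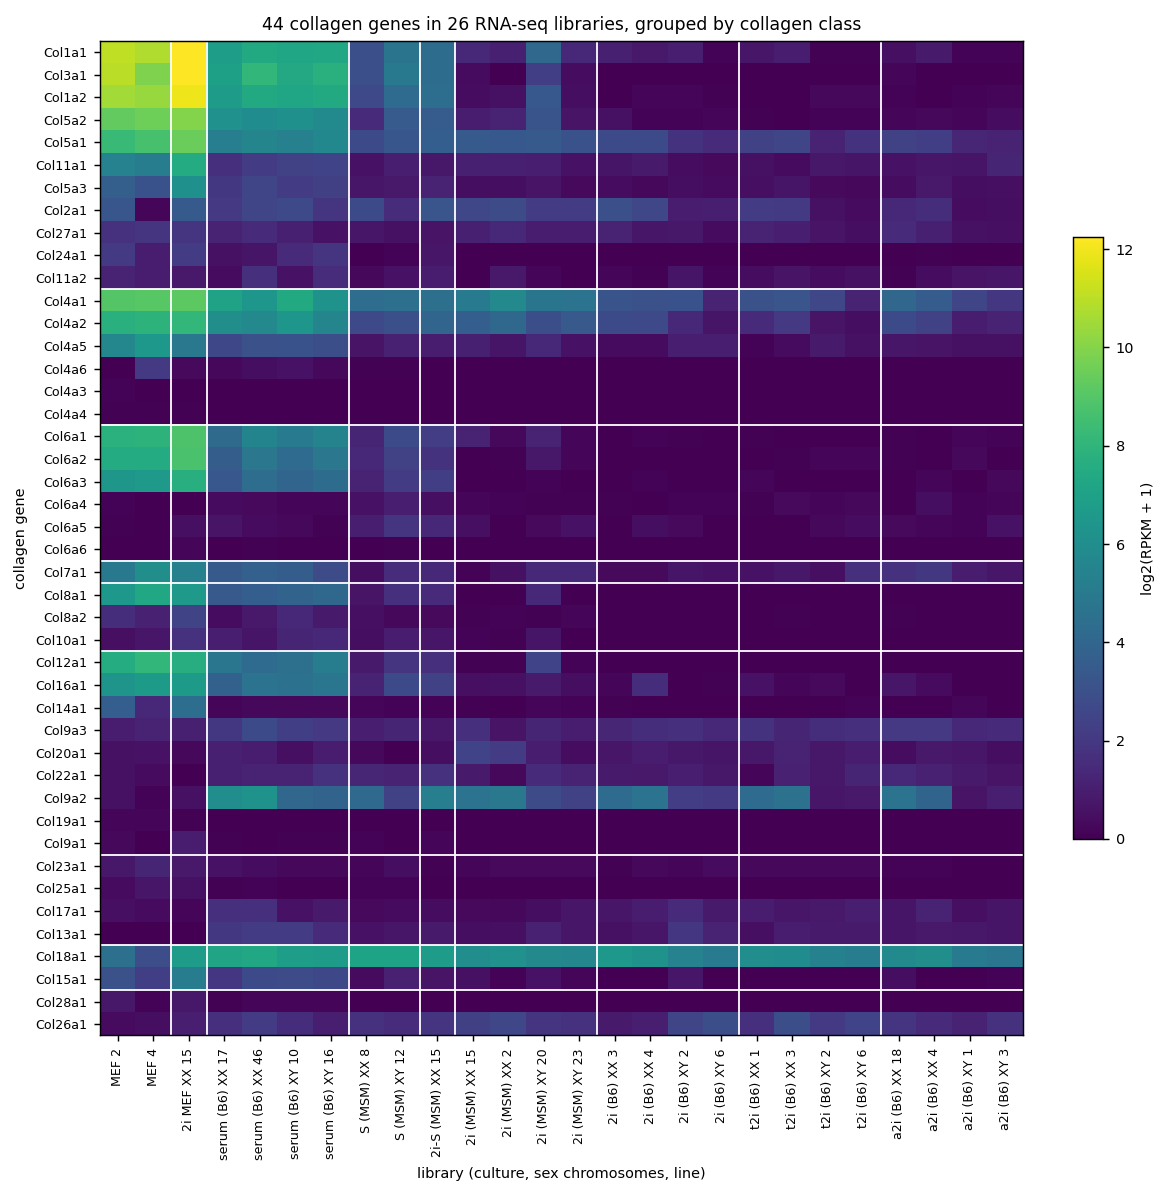
Level of each of the 44 collagen genes (rows, grouped by collagen class) in each of the 26 libraries (columns, by culture, sex chromosomes and line), as log2(RPKM + 1) in colour. Col1a1, Col3a1 and Col1a2 are brightest in the MEF and 2i MEF columns, intermediate in the 4 serum columns and dark in most other ESC columns, while Col18a1 is bright in every ESC column.

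The fibroblast share of a library was measured without collagens, as the median of RPKM over mean MEF RPKM across 21 fibroblast markers, such as Dcn, Lum and Postn, that reached 10 RPKM in MEFs. The share was 14.1% in serum XY line 10, 22.2% in serum XY line 16, 9.31% in serum XX line 17 and 12.95% in serum XX line 46. It was 2.34% in S XY line 12, 1.83% in 2i-S and 0.644% in S XX line 8, and it lay between 0.0232% and 0.748% in the 16 ESC libraries in 2i, t2i and a2i. The markers themselves spread widely: in serum XY line 10, for example, single markers ran from 1.09% to 52.4%. The summed RPKM of the 22 listed fibroblast genes was 6641 and 7022 in MEFs, 1011 to 1536 in serum and 20.95 to 31.9 in the 12 other libraries of the B6 cross. Pou5f1 (Oct4), the defining pluripotency factor, stood at 1235 to 2233 RPKM in all 23 ESC libraries and at 0 and 0.0337 RPKM in the MEFs. The MEF reference comes from the MSM cross, so its match to fibroblasts of another strain was not tested.

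**Figure D2:**
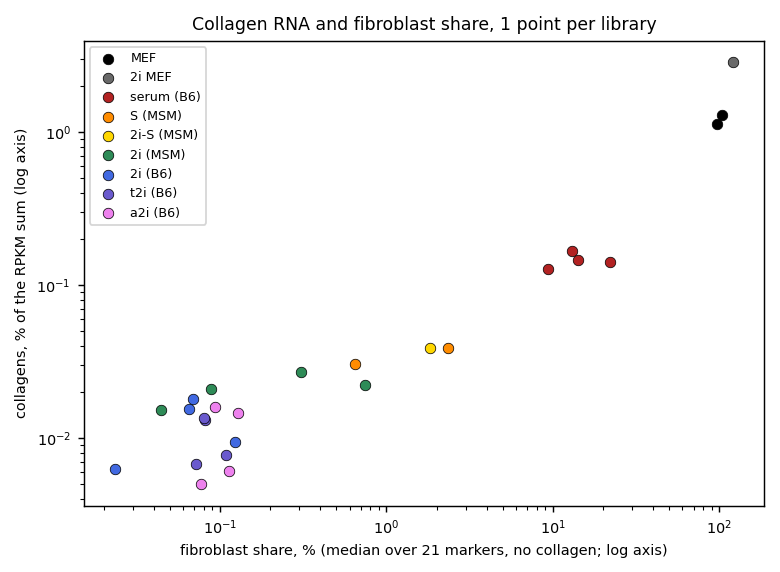
Percent of the RPKM sum read from the 44 collagens (y, log axis) against the fibroblast share from 21 non-collagen markers (x, log axis), 1 point per library coloured by culture. The 3 fibroblast libraries lie at the top right, the 4 serum libraries next to them with shares of 9.31% to 22.2%, and the 17 libraries with shares under 1% at the lower left.

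Serum libraries of the B6 cross held far more RNA of the fibroblast collagens than 2i libraries did. Col1a1 read 150 and 155 RPKM in serum XY lines 10 and 16 and 111 and 174 RPKM in XX lines 17 and 46, against 1.10 and 0.793 RPKM in 2i XX lines 3 and 4 and 1.01 and 0.0803 RPKM in 2i XY lines 2 and 6. Col3a1 read 167, 217, 122 and 274 RPKM in the same serum libraries and at most 0.02 RPKM in 2i. For both chains every serum library lay above every 2i library. On the log2(RPKM + 1) scale, serum exceeded 2i by 6.44 ± 0.19 (SE) for Col1a1 (limma adjusted p = 4.6e-11), with 4 libraries in each medium. The differences were 7.55 ± 0.20 for Col3a1 and 7.09 ± 0.14 for Col1a2, given as a description because both passed the filter on low values only through their serum libraries.

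Of the 44 collagens, 31 reached the filter of 1 RPKM in at least 2 libraries, and 25 of these were higher in serum and none lower, at a limma adjusted p under 0.05, where 30.7% of all 13150 genes tested were higher and 47.6% differed either way. The median difference was 2.22 over the 31 collagens and 0.09 over all genes. After quantile normalization the median over all genes was -0.08, the split of all calls was 2764 higher and 3877 lower in place of 4042 and 2215, and 24 collagens were called: Col9a3 (0.32), Col13a1 (0.37) and Col11a2 (0.32) lost their calls, and Col20a1 (-0.47, adjusted p = 0.013) and Col26a1 (-0.68, adjusted p = 0.044) became lower in serum. Of the 31, however, 16 passed the filter only through their serum values, and 15 of these 16 were higher, so the count of 25 is no support of its own. Among the 15 that also reached 1 RPKM in at least 2 libraries outside serum, 10 were higher in serum. Of the 22 listed fibroblast genes, 7 passed the filter outside serum and all 7 were higher in serum, while 15 passed it only through serum. In bulk libraries, more cells of a type and more RNA per cell cannot be told apart.

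By class, and over the chains that passed the filter outside serum, 2 of 4 fibrillar chains were higher in serum (Col1a1 and Col5a1). So were all 3 of type IV (Col4a1, Col4a2 and the X-linked Col4a5) and 2 of 3 fibril-associated ones (Col9a2 and Col9a3). Over all genes tested, those that passed only through serum included, 30.7% were higher. The 3 type VI chains tested, the short-chain network collagens Col8a1 and Col10a1 and 7 fibrillar chains, Col1a2 and Col3a1 among them, entered only through their serum values. The 6 chains tested and not called were Col2a1, Col27a1, Col20a1, Col22a1, Col17a1 and Col26a1, with differences of -0.22 to 0.42. Among the called chains, Col9a2, Col9a3, Col13a1 and Col18a1 were listed at similar or higher levels in ESC libraries poor in fibroblast RNA than in MEFs.

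Set against the fibroblast share, the type I chains Col1a1 and Col1a2 lay under it in all 4 serum libraries. Col3a1, Col5a2 and Col12a1 lay on both sides of it. The ratio of Col1a1 to its MEF mean, divided by the share of the same library, was 0.545 in XY line 10, 0.358 in XY line 16, 0.608 in XX line 17 and 0.686 in XX line 46. For Col1a2 it was 0.546 to 0.935, for Col3a1 0.666 to 1.44, for Col5a2 0.369 to 1.13 and for Col12a1 0.617 to 1.23. A value of 1 means that the collagen was present at the proportion of the median fibroblast marker. The type VI chains, microfibril components, ranged from 0.651 to 1.62 over the 3 genes and 4 libraries. By the rule, a collagen is above the share only where it exceeds the highest of the 21 markers in the library, at a level of at least 1 RPKM. It is at the share where it is neither above it nor under the lowest marker. So defined, 19 of the 28 collagens with an MEF mean of 1 RPKM or more were at the share in all 4 serum libraries. The markers spanned 1.09% to 52.4% in XY line 10 and 3.04% to 88.2% in XY line 16. Mfap5 was the highest marker in both of these and in XX line 17, and so set the limit there. It also stood at 12.1% in 2i XX line 3 of the B6 cross, where the share was 0.0688%. Col4a6 and Col23a1 stayed under 1 RPKM in serum and could not be above the share. This class is therefore wide, and the count of 19 is a description only.

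Col18a1 and Col9a3, a second chain of type IX collagen, were above the share in all 4. The remaining 7 (Col2a1, Col8a2, Col11a2, Col14a1, Col15a1, Col24a1 and Col27a1) differed in class between serum libraries. The count above the share was 4 with the 90th percentile of the markers as the limit, which added Col2a1 and Col15a1, and 5 with the upper quartile, chosen after seeing the data, which also added Col5a3. Col9a2 has no ratio, since its MEF mean lay under 1 RPKM.

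**Figure D3:**
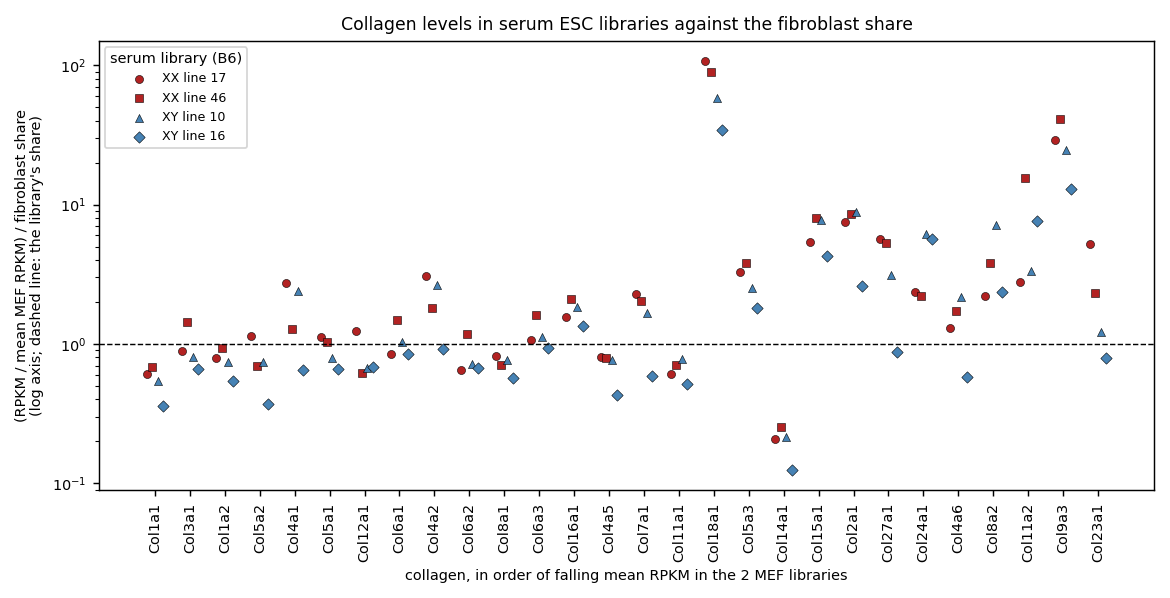
Ratio of each collagen's RPKM to its mean MEF RPKM, divided by the fibroblast share of the library (y, log axis), for the 28 collagens with an MEF mean of at least 1 RPKM, in order of falling MEF mean, in the 4 serum libraries (red XX, blue XY). Points on the dashed line have the proportion of the median fibroblast marker; Col1a1 lies at 0.358 to 0.686, Col4a1 at 0.650 to 2.75, and Col18a1 at 34.3 to 107.

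Col18a1 was above the fibroblast share in every ESC group. It stood at 90.7 and 77.2 RPKM in 2i XX lines 3 and 4 and at 42.4 and 32.3 RPKM in 2i XY lines 2 and 6 of the B6 cross, above both MEF libraries (22.1 and 6.31 RPKM). In the 2i MEF library, however, Col18a1 read 105 RPKM, above these 2i libraries. In serum it read 117 and 108 RPKM in XY lines 10 and 16 and 141 and 163 RPKM in XX lines 17 and 46. Every serum library was above every 2i library, and serum exceeded 2i by 1.21 ± 0.11 log2 units (limma adjusted p = 1.4e-06). With share times MEF mean subtracted from each gene in each library, the difference was 1.19 ± 0.11 (adjusted p = 6.8e-06). Its locus overlaps that of Slc19a1 by 8825 bases, and the annotation release and strand setting of the counting are not given in the sources used here.

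Over the 17 ESC libraries poor in fibroblast RNA, Col18a1 ran from 27.2 through a median of 57.6 to 134 RPKM, and it was above the share in all 17. Col4a1 (1.26, 8.18 and 53.4 RPKM, lowest, median and highest) and Col5a1 (1.33, 4.24 and 10.2 RPKM) were the other 2 collagens at 1 RPKM or more in all 17. Col26a1 reached it in 16 (median 2.53 RPKM), Col9a3 in 15 (1.84 RPKM), Col9a2 in 14 (14.4 RPKM), Col4a2 in 13 (4.38 RPKM) and Col2a1 in 12 (3.22 RPKM). In the same libraries Col1a2 had a median of 0.141 RPKM and was listed at 0 in 4, and Col3a1 was listed at 0 in 7. By the rule, Col4a1 and Col5a1 were at the share there, because some markers, Mfap5 and Mmp2 above all, were also high in ESCs; relative to the median share, Col4a1 lay at 3.42 to 104 times and Col5a1 at 2.56 to 47.9 times.

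Ratios between chain partners differed by pair. In the MEFs the ratio of Col5a1 to Col5a2 RPKM, chains that assemble into type V collagen, was 0.487 and 0.546, and in the 4 serum libraries it was 0.519 to 0.931. In the 5 fibroblast-poor ESC libraries where both reached 0.5 RPKM it was 1.24 to 13.2. Col1a1 to Col1a2, the partners of type I collagen, stood at 1.34 and 1.45 in MEFs and at 0.917 to 1.06 in serum. These groups did not overlap, but the 2i MEF, at 1.23, lay between them. The 2 fibroblast-poor ESC libraries where both chains reached 0.5 RPKM stood at 1.25 and 1.80. The ratio of Col4a1 to Col4a2 was 2.25 and 2.29 in MEFs, 1.598 to 2.07 in serum and 1.34 to 9.04 in 16 fibroblast-poor ESC libraries, which thus spanned both others. Col6a1 to Col6a2, partners in type VI collagen, stood at 1.22 and 1.28 in MEFs, at 1.57 to 1.79 in serum and at 0.866 and 1.74 in the 2 fibroblast-poor ESC libraries where both reached 0.5 RPKM.

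The type IV pair stood above the proportion of the median fibroblast marker in 3 of the 4 serum libraries. By the rule of the highest marker, however, Col4a1 and Col4a2 were at the share in all 4. Col4a1 read 175 RPKM in XY line 10, 74.4 RPKM in XY line 16, 132 RPKM in XX line 17 and 85.5 RPKM in XX line 46, against 8.18, 7.29, 7.60 and 1.28 RPKM in 2i. Col4a2 read 84.5, 46.4, 64.5 and 53.5 RPKM in the same serum libraries and 0.603 to 5.76 RPKM in 2i. Serum libraries were all above 2i libraries for both genes. Relative to the share, Col4a1 was at 2.40, 0.650, 2.75 and 1.28 times, and Col4a2 at 2.64, 0.922, 3.05 and 1.82 times.

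XY line 10 also had the highest levels of primitive endoderm markers, genes of the early embryonic lineage that lays down basement membrane. Its Gata4 stood at 16.3 RPKM and Sox17 at 7.62 RPKM, against 1.99 to 2.84 and 0.328 to 1.41 RPKM in the other 3 serum libraries. The 11 listed markers summed to 111 RPKM in it and to 23.8 to 28.3 RPKM in the other 3, and 6 of the 8 tested passed the filter only through serum. Some of these markers were also high in fibroblasts: the list summed to 154 and 101 RPKM in the MEFs, where Dab2 read 87.3 and 69.6 RPKM and Pdgfra 57.6 and 25.1 RPKM. Sox17 was listed at 0 in both MEFs, and Gata4 at 0.126 and 0.0177 RPKM. The part of these markers in the Col4a1 and Col4a2 values was not tested. Serum exceeded 2i by 4.16 ± 0.41 for Col4a1 (limma adjusted p = 3.6e-06) and by 4.07 ± 0.20 for Col4a2 (adjusted p = 6.3e-09), and without line 10 by 3.86 for each.

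After subtraction of the share, the type IV result rested on single libraries and on the estimate of the share. The difference was 1.79 ± 1.09 for Col4a1 (limma adjusted p = 0.19) and 2.16 ± 0.86 for Col4a2 (adjusted p = 0.054). Both genes were at 0 after subtraction in XY line 16. Without that library the differences were 3.46 and 3.60 (adjusted p = 0.00049 and 5.7e-07), and without XY line 10 they were 0.12 and 0.73 (adjusted p = 0.88 and 0.022). With the lower quartile of the markers as the share they were 3.49 and 3.61 (adjusted p = 8.9e-05 and 1.9e-07), and with the upper quartile 0.66 and 0.91 (adjusted p = 0.64 and 0.42). With the 2i MEF as the fibroblast reference Col4a2 was higher by 2.16 (adjusted p = 0.018).

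Of the 44 collagens, 21 were tested after subtraction, 11 were higher in serum and 1 lower, where 48.2% of 12856 genes were called, 2155 higher and 4038 lower (2594 and 2931 after quantile normalization). Those at or under the share fell to 0 in most libraries and left the filter, among them Col1a1, Col1a2 and Col3a1, so a count over the rest is a description only. Of the listed fibroblast genes, 10 were tested after subtraction, and all 10 were higher in serum, with a median difference of 3.17. A higher value after subtraction therefore does not set a collagen apart from the fibroblast markers. Col9a2 kept a difference of 1.75 ± 0.17 (adjusted p = 9.1e-06) and Col9a3 one of 0.70 ± 0.18 (adjusted p = 0.0077). Col16a1 (2.77 ± 0.32), Col15a1 (2.14 ± 0.21), Col5a3 (1.37 ± 0.15) and Col13a1 (0.84 ± 0.19), a transmembrane collagen, were higher too, each at an adjusted p of 0.0036 or less, but the first 3 of them passed the filter only through serum. Col7a1, the anchoring fibril chain, was higher by 1.58 ± 0.41 (adjusted p = 0.0082), but by 0.13 (adjusted p = 0.73) with the upper quartile of the markers as the share. Col5a1 was lower by this measure (-1.16 ± 0.21, adjusted p = 0.00081) and higher (2.07, adjusted p = 2.7e-06) with the lower quartile as the share, so its direction hangs on the estimate of the share.

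**Figure D4:**
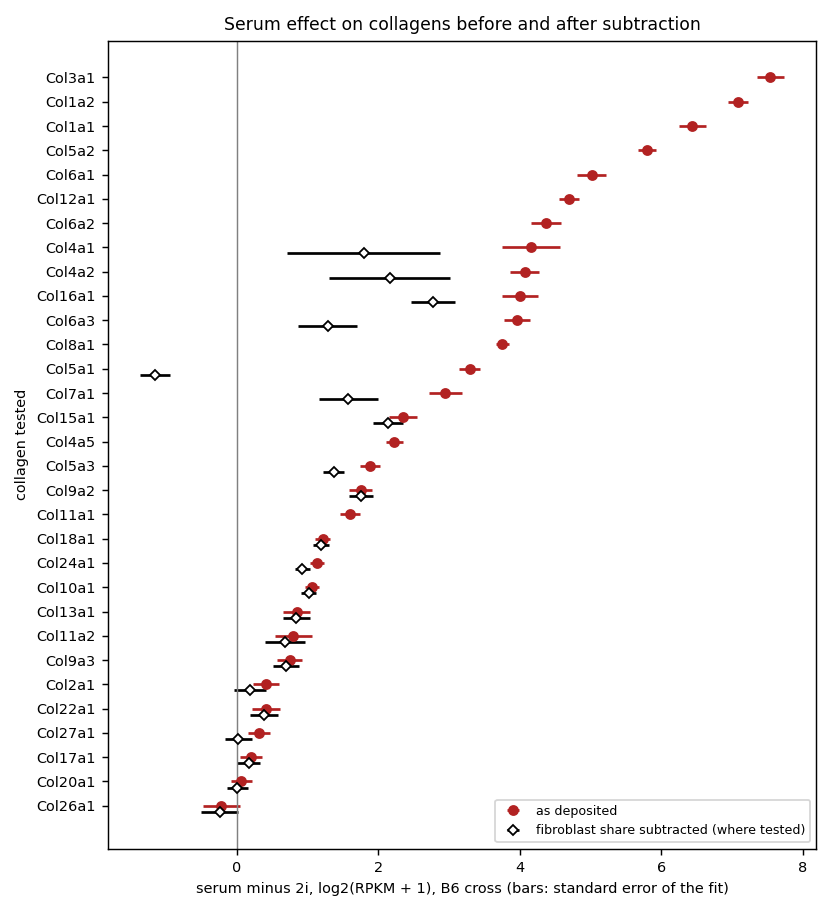
Difference between serum and 2i in the B6 cross for the 31 collagens tested, as deposited (red circles) and with the fibroblast share subtracted (open diamonds, drawn for the 21 tested after subtraction), in log2(RPKM + 1) with the standard error of the fit. Col18a1 and Col9a2 keep their differences of 1.19 and 1.75 after subtraction, while Col3a1, the highest as deposited at 7.55, has no diamond.

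XX lines held more RNA than XY lines of several collagens read in fibroblast-poor ESCs, in the 2i, t2i and a2i media of the B6 cross. Col9a2 ran from 14.4 through a median of 20.8 to 24.4 RPKM in the 6 XX lines and from 0.587 through 0.932 to 3.62 RPKM in the 6 XY lines. Col18a1 ran from 57.6 through 64.1 to 90.7 RPKM in XX and from 27.2 through 34.04 to 42.4 RPKM in XY lines. Neither gene's groups overlapped. On the log2 scale XX exceeded XY by 3.14 ± 0.14 for Col9a2 (limma adjusted p = 6.9e-09) and by 0.95 ± 0.09 for Col18a1 (adjusted p = 3.2e-06).

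Col2a1 (XX median 3.27, XY median 0.427 RPKM), Col5a1 (4.57 and 1.63 RPKM) and Col4a2 (4.91 and 0.796 RPKM) also had groups that did not overlap, with differences of 1.5 ± 0.15, 1.05 ± 0.12 and 1.47 ± 0.17 and adjusted p of 1.8e-05 or less in limma. Col4a1 differed by 1.26 ± 0.34 (adjusted p = 0.0093), with overlap, since XY line 2 in 2i read 7.60 RPKM. Col1a1 (0.59 ± 0.16) and Col27a1 (0.56 ± 0.13) were higher in XX at XX medians of 0.814 and 1.20 RPKM. Col4a5, on the X chromosome, was lower in XX lines by 0.33 ± 0.10 (adjusted p = 0.017), with medians of 0.289 RPKM in XX and 0.653 RPKM in XY lines. Without t2i XY line 2 that difference was -0.27 (adjusted p = 0.057). Col4a6, its neighbour on the X chromosome, was at most 0.502 RPKM in all B6-cross libraries and was not tested.

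In all, 8 of 31 collagens were higher and 1 was lower in XX lines, where 21.6% of all genes were higher and 20.5% lower (42.1% in all), so the share of collagens called was below that of all genes. Of the 22 fibroblast markers, 3 were higher and 2 lower in XX lines. Among genes that modify and fold collagen chains, 7 of 18 tested were higher in XX lines and 3 lower, with P4ha1, a prolyl hydroxylase subunit, higher by 0.86 ± 0.12 and Fkbp10, a collagen chaperone, lower by 1.42 ± 0.19. Of 12 that process or crosslink collagen, 5 were higher and 1 lower, with Loxl4, a lysyl oxidase, higher by 1.55 ± 0.12. Of the 9 basement membrane partners, 4 were higher, Nid1 (nidogen) by 0.72 ± 0.08 among them, and 2 lower, including Lamb1 (a laminin chain) at -0.65 ± 0.13.

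In serum the sex pattern differed by gene. Col9a2 read 62.6 and 78.3 RPKM in XX lines 17 and 46 and 15.4 and 13.9 RPKM in XY lines 10 and 16, and Col18a1 also kept XX above XY. Col2a1, Col4a1, Col4a2 and Col5a1 overlapped between XX and XY serum lines, while the fibroblast shares (9.31% and 12.95% in XX, 14.1% and 22.2% in XY) did not overlap; their part in these values was not tested. Whether the sex difference itself differs between media was not tested.

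In the MSM cross, a comparison added after seeing these values, Col9a2 was 1 collagen of 30 tested that was called between XX and XY ESCs, where 3.44% of 13443 genes were (2.43% higher in XX). It read 24.1 and 29.0 RPKM in 2i XX lines 15 and 2, 6.24 and 4.11 RPKM in 2i XY lines 20 and 23, 17.2 RPKM in S XX line 8 and 4.16 RPKM in S XY line 12. Each XX library stood above each XY library, and the difference was 2.06 ± 0.22 (limma adjusted p = 0.0046). Without XY line 23, 5 collagens were called: Col9a2 (1.88) and, lower in XX lines, Col1a1 (-2.40), Col1a2 (-2.31), Col5a2 (-2.08) and Col3a1 (-2.04). XY line 20 had the highest fibroblast share of the 2i libraries (0.748%).

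**Figure D5:**
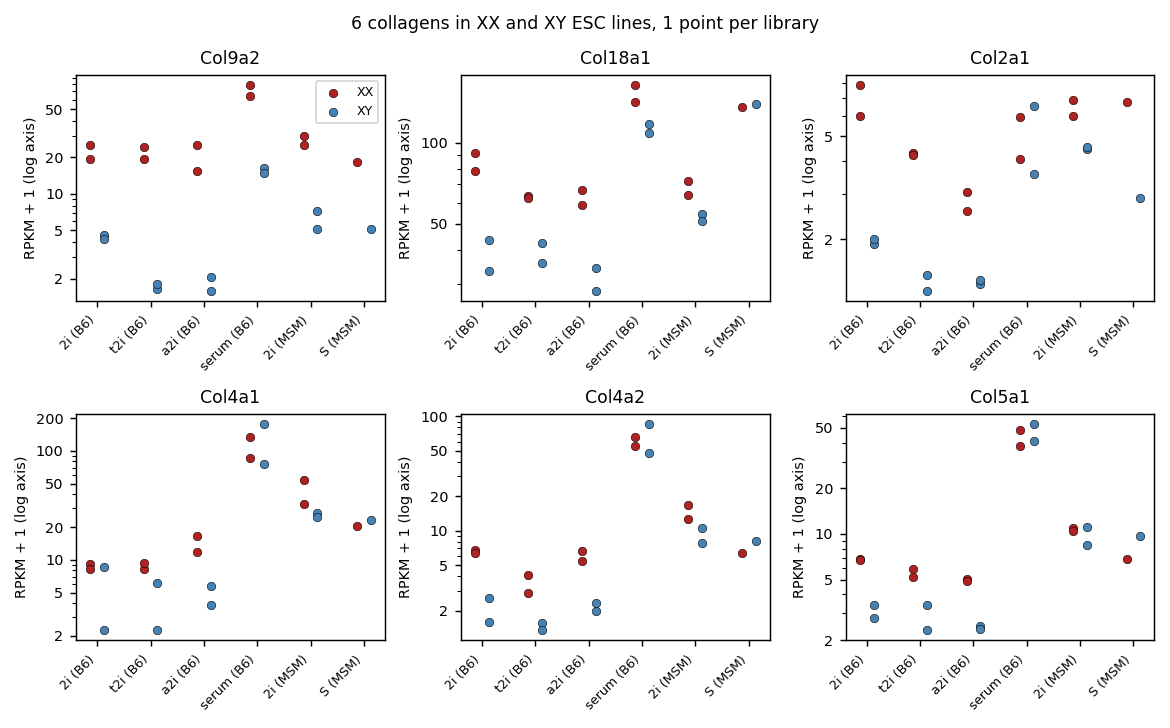
RPKM + 1 (log axis) of 6 collagens in XX (red) and XY (blue) ESC lines by culture, 1 point per library. Col9a2 is higher in every XX library than in every XY library of the same culture, and Col18a1 in all but the S libraries (134 RPKM in XX, 138 RPKM in XY); in the B6 cross Col4a1, Col4a2 and Col5a1 are higher in serum than in 2i in both sexes.

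Against 2i, 1 collagen was called in t2i and 4 were called in a2i, in each case a share below or near that of all genes. Between t2i and 2i, 1 of 31 collagens was called, where 8.08% of all genes were (4.19% higher, 3.89% lower): Col9a2 was lower by 0.70 ± 0.17 (limma adjusted p = 0.022). It read 18.3 and 23.2 RPKM in t2i XX lines and 0.654 and 0.791 RPKM in t2i XY lines, against 18.4, 24.3, 3.62 and 3.21 RPKM in 2i, so the XX libraries overlapped and the XY libraries did not. The call was lost without any 1 of 6 of the 8 libraries (adjusted p = 0.052 to 0.089), the exceptions being XX line 3 of each medium, and with line number within sex as a block (-0.52, adjusted p = 0.11). Between a2i and 2i, 4 of 31 (12.9%) were called, where 13.8% of all genes were (7.94% higher, 5.85% lower). Col2a1 was lower by 0.91 ± 0.18 (adjusted p = 0.0062), Col9a2 lower by 0.72 ± 0.17 (0.012), Col18a1 lower by 0.36 ± 0.11 (0.042) and Col7a1 higher by 0.87 ± 0.23 (0.024). Leaving out a library ended no call of Col2a1, but ended that of Col9a2 for 2i XX line 4 and a2i XY line 1, that of Col18a1 for 2i XX line 3, 2i XY line 2, a2i XX line 18 and a2i XY line 3, and that of Col7a1 for all but a2i XX line 18 and a2i XY line 3.

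In the MSM cross, MEFs exceeded 2i ESCs in 22 of 30 collagens tested and were lower in 4, where 71.1% of all genes differed (29.9% higher, 41.2% lower). Of the 22 higher, 5 passed the filter only through fibroblast libraries, and 17 of the 25 that passed it without them were higher. The 4 lower in MEFs were Col9a2 (-3.36 ± 0.23), Col18a1 (-2.20 ± 0.38), Col26a1 (-1.69 ± 0.19) and Col20a1 (-0.91 ± 0.32), of which Col20a1 lost the call without either MEF library or without 2i XY line 20. Col9a2 was listed at 0.484 and 0.0709 RPKM in the MEFs and at 4.11 to 29.0 RPKM in the 2i lines. Col26a1, a collagen of little known function, stood at 0.295 and 0.384 RPKM in the MEFs and at 2.31 to 5.02 RPKM in 2i. Col2a1 changed direction with the MEF library kept: MEFs differed from 2i by -2.27 without line 2 and by 0.87 without line 4.

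Serum-derived S lines of the MSM cross held little fibroblast RNA, and their collagens moved less. Of 30 tested, 6 were higher and 1 lower than in 2i, where 17% of all genes were called (8.67% higher, 8.36% lower). Among the 6, Col6a5 passed the filter only through its S and 2i-S values. Col6a2, Col6a3 and Col16a1 stayed under 1 RPKM in every 2i line. The count of 6 is therefore a description only. Col3a1 read 6.97 RPKM in S XX line 8 and 30.4 RPKM in S XY line 12, against 0.273, 0.0275, 3.87 and 0.330 RPKM in 2i, and exceeded 2i by 3.21 ± 0.51 (limma adjusted p = 0.0060). Both S libraries lay above all 2i libraries. Without S XY line 12 the adjusted p was 0.087 and 3 collagens were called. Col6a2 (1.65 ± 0.22) and Col6a3 (1.62 ± 0.22) were higher as well, and Col20a1 was lower by 1.34 ± 0.32 (adjusted p = 0.027), but by 0.64 (adjusted p = 0.25) without S XX line 8. That call was also lost without 2i XY line 20 (adjusted p = 0.071) and with no filter (0.065).

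The 2i-S line gave 3 calls, Col3a1, Col6a2 and Col6a3, where 1.22% of genes were called (0.811% higher). These rest on 1 library, assumed to vary like the other groups, and all 3 calls were lost without either 2i XX line. After subtraction of the share, 3 of 17 collagens tested were higher and 4 lower in S than in 2i, where 14.1% of genes were called (6.34% higher, 7.78% lower). Col18a1 was higher by 1.20 ± 0.15 (adjusted p = 0.0038), and Col4a1 (-1.17 ± 0.23), Col4a2 (-1.53 ± 0.27) and Col5a1 (-1.83 ± 0.32) were lower. Without S XY line 12 the difference of Col18a1 was 0.99 (adjusted p = 0.057). The other collagens higher in S, Col6a3 and Col6a5, passed the filter only through S and 2i-S values, so their differences are a description. They lost their calls in 3 of 9 and 7 of 12 alternatives. Without S XY line 12, 1 collagen was called, without S XX line 8 it was 3 and without 2i XY line 20 it was 4. Col4a1 and Col4a2 lost their calls without either S line and Col5a1 without S XY line 12, and with the lower quartile as the share Col4a1, Col4a2 and Col5a1 lost their calls (adjusted p = 0.078, 0.059 and 0.059).

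Col4a1 stood at 19.6 and 22.2 RPKM in S and at 23.9 to 53.4 RPKM in 2i of the MSM cross. Its order there was the opposite of that in the B6 cross, but without subtraction the difference between S and 2i was not called. A single fit of 14 libraries set the serum effect of the crosses against each other. It was larger in the B6 cross for 21 of 32 collagens and smaller for Col6a5 (a call lost in 10 of 15 alternatives), where 11.6% of 13330 genes differed (9.47% larger, 2.11% smaller), 1263 larger and 281 smaller (693 and 505 after quantile normalization, when 20 collagens differed). Col5a3, Col15a1 and Col24a1 passed the filter only through their B6 serum values, and Col6a5 only through its S values. The count of 21 is therefore no support of its own. The difference was 4.75 ± 0.64 for Col4a1 (limma adjusted p = 0.00050), 4.75 ± 0.55 for Col4a2 (0.00018), 4.81 ± 0.65 for Col5a2 (0.00052), 4.61 ± 0.69 for Col1a1 (0.0011) and 2.17 ± 0.24 for Col9a2 (0.00014). Col18a1, which rose in serum in the B6 cross, was not called between crosses. The fibroblast share moved with the cross, at 9.31% to 22.2% in B6 serum and 0.644% and 2.34% in S.

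Genes that act on collagen were compared over those that passed the filter outside serum. Of all 13150 genes tested, 30.7% were higher and 16.8% lower in serum. These percentages also cover genes that passed only through serum, and none was computed for genes that passed outside serum. Of 16 such assembly genes 10 were higher and 3 lower, with Fkbp10 higher by 3.54 ± 0.24 and P3h3, a prolyl hydroxylase, by 2.13 ± 0.19. Of 7 processing and crosslinking genes 6 were higher, among them the lysyl oxidases Loxl3 (3.40 ± 0.22) and Loxl2 (3.26 ± 0.16). Of 3 collagen receptors 2 were higher, the integrin chain Itgb1 by 1.66 ± 0.08 and Ddr1 by 1.56 ± 0.17. Of the 9 basement membrane partners 3 were higher and 1 lower, near the share of all genes, with Lamb1 at 2.89 ± 0.16, Nid2 at -0.58 ± 0.10 and a median difference of 0.15. The genes that passed only through serum were P4ha3 and P3h2 in assembly, Bmp1, Tll1, Adamts2, Lox and Loxl1 in processing, and the receptors Itga11 and Ddr2. Lox, which crosslinks fibrils, differed by 6.16 ± 0.10 among these. After subtraction of the share, 16.8% of 12856 genes tested were higher and 31.4% lower. In that fit 6 of 10 processing genes tested were higher and 3 lower, and 5 of 17 assembly genes were higher and 7 lower. Genes that passed only through serum were not set apart in these counts. The fibroblast share values given above moved with all of these, and their part in each was not tested.

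The 2i MEF differed from the 2 MEFs in 2 of 30 collagens, where 0.454% of genes were called, 17 higher and 44 lower (35 and 39 after quantile normalization). Col5a3 read 70.6 RPKM against 12.1 and 7.59 RPKM (2.76 ± 0.31, limma adjusted p = 0.021), and Col11a1, a fibril chain of cartilage and early fibroblasts, read 184 RPKM against 42.6 and 35.3 RPKM (2.22 ± 0.32, adjusted p = 0.041). Both calls were lost without MEF line 4, that of Col11a1 also without MEF line 2 (when 5 collagens were called), and both with a pseudocount of 0.1 RPKM, and with 1 library on that side they have no replicate check of their own. Col1a1, Col1a2 and Col3a1 were each above both MEFs, and no call was made. Col18a1 read 105 RPKM in the 2i MEF against 22.1 and 6.31 RPKM in the MEFs, also with no call.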

How the data were processed

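RNA-seq libraries were made with a stranded mRNA kit, per the labels' protocols. The authors deposited 1 table of gene-level RPKM values on mm10 positions. TopHat2 2.1.0, Cufflinks 2.2.1, Bowtie2 2.2.5 and cutadapt 1.9.1 are named in the submitters' processing notes, without the tool that made the RPKM. Read counts were not used, so depth is unknown; RPKM sums ran from 624274 to 934309 per library. The 62 bisulfite samples were not analysed here.

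The members and all lists were chosen with earlier results of these data known. The deposited RPKM was turned into log2(RPKM + 1) with no other scaling. A gene entered a fit if 2 or more of its libraries reached 1 RPKM. Tests used limma 3.58.1 (R 4.3.3; linear model, contrasts, trended empirical Bayes), with Benjamini-Hochberg adjustment over all genes and calls under 0.05. Fold changes on this scale understate those of low genes. The B6-cross fit held 16 libraries and 8 means of medium by sex; XX against XY is the mean over 2i, t2i and a2i. The MSM-cross fit held 10 libraries, culture means and an XX term. The p-values measure the spread between lines, which nothing in the labels ties to separate animals. For the subtracted fits, share times mean MEF RPKM was removed and values under 0 were set to 0. Named collagens were the 12 highest in MEFs, those at 1 RPKM or more in at least 9 of the 17 fibroblast-poor libraries, those above the share in a serum group, Col4a5, Col4a6, and up to 5 called in the comparisons of 2i MEF, t2i and a2i; other collagens named were chosen after their values were seen. No pair of libraries was identical. Line numbers shared by t2i and 2i lines do not mark one origin in the labels. On simulated data the serum fit recovered 96% of changes of 1 log2 unit and 99% of changes of 2, over 12410 genes, and the 2i MEF fit 22% and 78%, over 12664. Changes were planted only in genes with a mean log2(RPKM + 1) above 2, so recovery at the lower levels of many collagens was not measured. Sequences and motif shares are from RefSeq (GRCm38.p6). Tables were made with pandas 2.3.3 and numpy 2.4.6 under Python 3.11.15, and figures with matplotlib 3.10.9.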

Additional observations from a re-analysis of the deposited data

Results flagged for a closer look

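MSM 2i XY line 20 stood apart from the other 3 MSM 2i libraries in fibroblast collagens. It was highest for Col1a1 at 16.7 RPKM (the others 1.13 to 1.66), Col1a2 at 9.31 RPKM (0.329 to 0.487), Col5a2 at 8.21 RPKM (0.568 to 1.33), Col12a1 at 4.55 RPKM (0.0391 to 0.0779), Col3a1 at 3.87 RPKM (0.0275 to 0.330) and Col8a1 at 1.57 RPKM (0 to 0.0155). Its fibroblast share was 0.748%, the highest of the 2i libraries, and the part of that share in these values was not tested. B6 2i XY line 6 was lowest for Col4a1 at 1.28 RPKM (the others 7.29 to 8.18), and B6 a2i XY line 3 highest for Col11a1 at 1.42 RPKM (0.539 to 0.663). These are 8 of 68 checks by Dixon's gap over range, each of 1 named collagen in the 4 libraries of 1 culture, XX and XY together. Chance gives about 1 in 20 for a single check. Most of the 8 come from 1 library, MSM 2i XY line 20, so the checks are not independent and their count cannot be set against that rate.

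The serum effect differed between the crosses in 22 collagens by the interaction term of limma. In log2 units, B6 minus MSM, the fibrillar chains differed by 4.81 (Col5a2), 4.80 (Col1a2), 4.61 (Col1a1), 4.33 (Col3a1), 3.62 (Col5a1), 1.75 (Col11a1), 1.57 (Col5a3) and 1.06 (Col24a1). The type IV chains differed by 4.75 (Col4a1), 4.75 (Col4a2) and 2.26 (Col4a5), and the type VI chains by 3.70 (Col6a1), 2.72 (Col6a2), 2.34 (Col6a3) and -0.95 (Col6a5). The others were Col12a1 (4.00), Col8a1 (2.95), Col7a1 (2.80), Col16a1 (2.64), Col9a2 (2.17), Col15a1 (2.01) and Col20a1 (1.40). Col5a3, Col15a1 and Col24a1 passed the filter only through their B6 serum values and Col6a5 only through its S values, so their differences are a description. The call of Col24a1 was lost in 9 of 15 alternatives and that of Col6a5 in 10 of 15. Without S XX line 8 the difference was 0.70 for Col20a1 (adjusted p = 0.20), 1.92 for Col16a1 (adjusted p = 0.10) and 1.40 for Col11a1 (adjusted p = 0.057), and none of the 3 was called. Col20a1 also lost its call without 2i XY line 20 and after quantile normalization. The fibroblast share and the cross moved together here, and their parts cannot be told apart.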

How the results depend on the processing

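The number of collagens called between serum and 2i (25, range 24 to 32), between XX and XY in the B6 cross (9) and between MEF and 2i (26) stayed within 1.5 times under the alternatives run. Between t2i and 2i (1) it was 3 with a pseudocount of 0.1 RPKM, 2 in the 8 libraries alone, and 0 to 2 without 1 library; with line number within sex as a replicate block it was 1, with 404 genes called in place of 1062. Between a2i and 2i (4) it was 2 with no filter and 2 to 3 without 1 library. Against 2i, S (7) gave 3 to 8 without 1 library, and 2i-S (3) gave 1 with no filter and 0 to 6 without 1 library. The 2i MEF count (2) was 0 with a pseudocount of 0.1 RPKM and 0 to 5 without 1 library. With the share subtracted, serum (12) gave 24 with the lower quartile as the share, and S (7) gave 3 with no filter and 1 to 6 without 1 library. XX against XY in the MSM cross (1) gave 2 with a pseudocount of 0.1 RPKM and 1 to 5 without 1 library. The collagens above the share in serum (2) were 4 with the 90th percentile and 5 with the upper quartile as the limit, and 2 to 3 without 1 library. Col2a1 in MEF against 2i turned from -0.70 to 0.87 without MEF line 4 (-2.27 without line 2), and Col5a1 with the share subtracted from -1.16 to 2.07 with the lower quartile. In S, 2i-S, t2i and a2i against 2i, each library left out also lowered the number of all genes called. For the 2i MEF, that number rose without MEF line 2 and fell without MEF line 4. The collagen counts were not set apart from this general change. Of all single-collagen calls (119 results, 1439 alternatives), 118 were lost and 1 reversed. Apart from subtraction, where the share itself was changed, the cause was not tested. Depth is unknown, so values near 0 RPKM carry an unknown counting error.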
